A study of Mus musculus with 8 samples.

Results

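The 35 genes described here encode enzymes that break down amino acids in the liver, together with Bckdk, a kinase that restrains one of them. They were taken by gene name, and each of the 35 names matched 1 of the 45706 rows of the deposited gene table. All 35 were among the 14629 genes with enough counts to be tested. By the amino acid they act on, 5 belong to phenylalanine and tyrosine breakdown, 5 to tryptophan, 5 to serine and alanine, 2 to glutamine and aspartate, 4 to histidine, 1 to lysine, 3 to proline and hydroxyproline, 7 to the branched-chain amino acids, 2 to cysteine and 1 to acylated amino acids.

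Liver RNA was sequenced from 8 female C57BL/6J mice, 4 months old, that were all fasted overnight, with 1 library per mouse. The 4 WT mice carried no edit. In the 4 S155A mice (SA/SA in the study's naming), the serine of PLIN5 that the allele is named for had been replaced with alanine in the endogenous gene by CRISPR-Cas9. PLIN5 is a protein of the lipid droplet surface. The edit was carried in the germline, so the change was present in every cell and under the gene's own promoter. The study compared the genotypes after fasting. Each label also carries an animal number. WT replicates 1 and 4 and S155A replicates 1 and 4 had numbers under 200, from 89 to 123, and WT replicates 2 and 3 and S155A replicates 2 and 3 had numbers over 800, from 830 to 869. These are called the low and the high animal numbers, with 2 mice of each genotype in each range. The labels do not say what the numbers stand for, so litter, cage and date of harvest cannot be told apart here.

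In a fasting animal the liver takes up amino acids released by muscle and other tissues. Aminotransferases and dehydratases remove their nitrogen, which enters the urea cycle, and the carbon skeletons feed glucose synthesis, ketone bodies or the citric acid cycle. Several of the enzymes are classical targets of glucagon and glucocorticoids, and tyrosine aminotransferase (Tat) and serine dehydratase (Sds) are textbook examples. The branched-chain amino acids are an exception, since their first step, transamination, takes place largely outside hepatocytes, while the later oxidation is active in liver.

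Total estimated counts were between 45359070 and 54540864 in the WT libraries and between 39709785 and 52309067 in the S155A libraries, and each member had between 557 and 198784 counts in a library. Values are given as CPM, the count scaled to a common library size of 1e+06 after TMM normalization. Plin5 itself was between 183 and 254 CPM in WT mice and between 192 and 457 CPM in S155A mice, which overlapped. S155A replicates 1, 2 and 4, at 457, 276 and 386 CPM, were above every WT mouse, and S155A replicate 3 was not. The log2 fold change of Plin5 was 0.67 (standard error 0.24, edgeR unadjusted p = 0.0193, adjusted p = 0.993). These counts do not separate the edited codon from the WT codon. Liver is the labelled tissue and hepatocytes the labelled cell type, and none of the 8 hepatocyte markers was at 0. Markers of other liver cells were detected as well, as in whole liver. A pair of libraries stood apart in genes of other cells. In S155A replicate 3 the summed level of 12 lymphocyte markers was 2080.5 CPM, and it was at most 57.0 CPM in the other 7 mice. In WT replicate 2 the 9 pancreatic acinar markers summed to 40.5 CPM, and in the other 7 mice to at most 6.58 CPM. Of these 9 markers, 2 could be tested.

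The stretch from 250 bases before to 50 bases after the annotated start was read for each member from RefSeq's sequences of build GRCm38.p6, where 29 of the 35 members matched, with 32 starts. Kynu, Sds, Sdsl, Gpt, Gls2 and Cdo1 had no entry of that length. The promoters printed here belong to the members with the smallest p in the results that follow. Tat, Hal and Csad are those whose genotype difference was most opposite between the animal number ranges. Acy1 and Haao are those whose levels did not overlap between the ranges. Each runs 5′ to 3′ on the strand of its gene, and capitals mark matches on either strand to any of 5 motifs, of which none contains another. These are TATAAA, the letters of the TATA box, CCAAT, which nuclear factor Y binds, TGACG, the core of the cAMP response element, AGAACA, a glucocorticoid receptor motif, and GTTAAT, an HNF1 motif.
Tat, chr8:109990186-109990485, forward strand: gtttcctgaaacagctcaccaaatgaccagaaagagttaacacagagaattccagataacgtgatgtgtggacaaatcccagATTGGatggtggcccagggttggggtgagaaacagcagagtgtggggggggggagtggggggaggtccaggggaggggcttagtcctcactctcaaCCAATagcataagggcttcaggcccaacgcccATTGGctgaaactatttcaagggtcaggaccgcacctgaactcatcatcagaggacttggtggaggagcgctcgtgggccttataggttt
Hal, chr10:93488518-93488817, forward strand: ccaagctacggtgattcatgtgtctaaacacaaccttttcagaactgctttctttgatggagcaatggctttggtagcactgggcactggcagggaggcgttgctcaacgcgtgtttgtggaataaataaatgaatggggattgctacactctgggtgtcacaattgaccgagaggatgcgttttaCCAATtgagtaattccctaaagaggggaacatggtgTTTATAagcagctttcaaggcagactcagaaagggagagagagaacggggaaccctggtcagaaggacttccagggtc
Csad, upstream start, chr15:102205003-102205302, reverse strand: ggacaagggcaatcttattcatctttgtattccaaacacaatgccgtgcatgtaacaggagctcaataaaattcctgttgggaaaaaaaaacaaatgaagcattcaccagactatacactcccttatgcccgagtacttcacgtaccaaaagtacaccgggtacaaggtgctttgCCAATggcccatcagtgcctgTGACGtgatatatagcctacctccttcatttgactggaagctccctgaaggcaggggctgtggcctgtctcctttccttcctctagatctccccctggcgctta
Csad, downstream start, chr15:102188994-102189293, reverse strand: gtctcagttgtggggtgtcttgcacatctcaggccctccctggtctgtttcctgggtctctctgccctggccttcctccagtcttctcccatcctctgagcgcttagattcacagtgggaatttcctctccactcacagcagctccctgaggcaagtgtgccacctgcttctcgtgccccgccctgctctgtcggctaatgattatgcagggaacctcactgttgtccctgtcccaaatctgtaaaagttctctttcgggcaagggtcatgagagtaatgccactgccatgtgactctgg
Acy1, chr9:106438187-106438486, reverse strand: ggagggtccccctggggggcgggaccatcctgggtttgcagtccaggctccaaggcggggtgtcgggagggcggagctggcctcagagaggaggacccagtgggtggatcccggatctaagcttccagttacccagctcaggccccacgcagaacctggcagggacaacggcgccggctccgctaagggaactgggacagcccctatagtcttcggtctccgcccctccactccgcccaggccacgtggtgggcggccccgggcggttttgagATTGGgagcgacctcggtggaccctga
Haao, chr17:83846741-83847040, reverse strand: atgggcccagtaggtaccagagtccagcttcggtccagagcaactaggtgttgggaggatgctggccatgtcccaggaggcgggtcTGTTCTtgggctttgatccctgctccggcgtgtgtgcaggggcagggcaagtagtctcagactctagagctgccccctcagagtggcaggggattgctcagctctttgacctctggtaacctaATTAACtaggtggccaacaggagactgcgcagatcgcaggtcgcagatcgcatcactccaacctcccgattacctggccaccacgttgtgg
Tat held 3 matches to CCAAT over both strands. Hal held a CCAAT and, on the reverse strand, a TATAAA, and the upstream start of Csad held a CCAAT and a TGACG. Acy1 held 1 CCAAT and Haao held AGAACA and GTTAAT, all on the reverse strand. The downstream start of Csad held none of the 5 motifs. These RefSeq starts can differ from the gene coordinates given below, which are from GENCODE release M21. The Haao stretch lay inside the gene as annotated there, and the upstream Csad stretch lay wholly outside it. Over the 32 member starts, CCAAT or its reverse complement was found in 18 (56.3%), against 37.4% of all 32851 promoters. The member stretches were selected for full length, and the set of all promoters was not selected by length. TATAAA was found in 5 (15.6%, against 13.6%), TGACG in 3 (9.38%, against 20.8%), AGAACA in 6 (18.8%, against 19.0%) and GTTAAT in 4 (12.5%, against 7.10%). A match is a run of letters and not a binding site, and the shares were not tested.

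The enzymes were at their highest in the 2 S155A mice with high animal numbers. These mice, numbers 830 and 831, were also the most alike pair of libraries, at a chi-square per gene of 40.2 between their counts. The WT mice of that range had numbers 856 and 869. The labels do not say whether the 2 S155A mice are related. Summed over the 35 genes, the level was 17488 and 14003 CPM in the WT mice with low animal numbers (replicates 1 and 4) and 15161 and 13621 CPM in the WT mice with high numbers (replicates 2 and 3). It was 13029 and 16331 CPM in the S155A mice with low numbers (replicates 1 and 4) and 19071 and 19156 CPM in the S155A mice with high numbers (replicates 2 and 3). The other 6 mice overlapped between the genotypes. The sums are after TMM scaling, which divides by a factor for each library. This factor was lowest in S155A replicates 2 and 3, at 0.925 and 0.955, which raised their CPM relative to the others. It was between 0.984 and 1.054 in the other 6 mice. S155A replicate 2 was above the 8-mouse mean for 33 of the 35 genes and S155A replicate 3 for 31, and S155A replicate 1, the lowest in the sum, for 4. WT replicate 1 was above the mean for 21 genes and was the highest of all mice for 10. The other mice were above the mean for 7 to 18 genes.

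**Figure D1:**
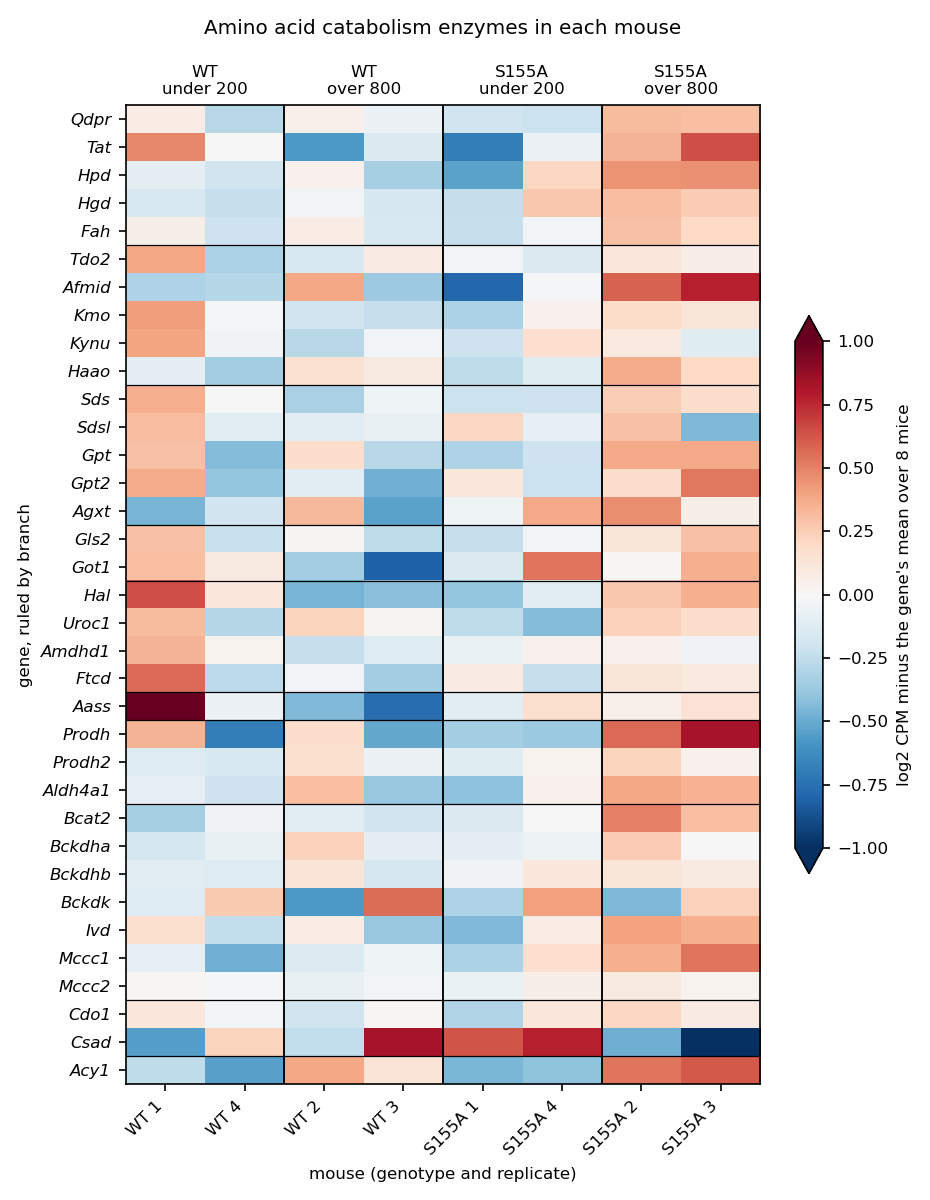
Level of each of the 35 enzymes (rows, ruled by amino acid) in each mouse (columns, by genotype and animal number range), as log2 CPM minus the gene's mean over the 8 mice. The colour scale ends at 1 in both directions, beyond which colours do not change. The 2 S155A mice with numbers over 800 are above the mean for 33 and 31 of the 35 genes, and Csad runs the other way in them.

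The spread over the 8 mice also differed between the enzymes. Mccc2, a subunit of the methylcrotonyl-CoA carboxylase of leucine breakdown, had the least spread, with a ratio of 1.12 between its highest and lowest mouse. Bckdhb, a subunit of the branched-chain ketoacid dehydrogenase, had a ratio of 1.23, and the hydroxyproline dehydrogenase Prodh2 had 1.30. The widest ratios were 3.99 for Csad, the decarboxylase that leads cysteine towards taurine, 3.40 for Aass, which starts lysine breakdown, 2.96 for Afmid, the formamidase of the kynurenine pathway, and 2.87 for the proline dehydrogenase Prodh. The steady genes and the variable genes included members of the same branch, such as Prodh2 and Prodh.

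The comparison of S155A with WT asked whether loss of the phosphorylated serine altered these enzymes in the fasted liver. No member passed an adjusted p of 0.05 (Benjamini-Hochberg, over all genes tested) in edgeR's quasi-likelihood test (0 of 35, against 0% of all genes tested), and DESeq2 (0.0410% of all genes) and limma-voom also called 0. At an unadjusted p under 0.05 there were 3 members, Bcat2, Hgd and Mccc1, which is 8.6% of the members against 3.40% of all genes. All 3 were higher in S155A mice, as 1.42% of all genes were. The log2 fold change was above 0 for 26 of the 35 members and below 0 for 9, where 48.8% of all genes were above 0. The median was 0.11 over the members and -0.0050 over all genes, and values ran from -0.13 for Uroc1 to 0.41 for Agxt. No member had ranges that did not overlap between the genotypes, as 2.30% of all genes did. In bulk tissue, fewer cells that express a gene and less RNA per cell cannot be told apart. Of the other liver cells, the 8 stellate cell markers summed to 265 to 344 CPM in WT and 119 to 271 CPM in S155A mice, and all 8 had log2 fold changes below 0. All 12 lymphocyte markers were above 0 (median 0.72, 3 at an unadjusted p under 0.05), as were all 8 of Kupffer cells and macrophages (median 0.20, 0 at that p). All 6 red blood cell markers were below 0 (median -0.51, 0 at that p), and so were both tested acinar markers (median -1.75, 1 at that p). So were 5 of 6 markers of cholangiocytes and 6 of 8 of endothelial cells (medians -0.27 and -0.15, 0 at that p). The part of these cells in the result was not tested. The median over the members depended on single mice. It was 0.045 without S155A replicate 2, 0.063 without S155A replicate 3 and 0.050 without WT replicate 4, and it was 0.17 without WT replicate 1 or S155A replicate 1.

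In the branched-chain branch, 6 of 7 values were above 0. Bcat2, the mitochondrial aminotransferase that takes the amino group, was at 28.5, 33.2, 31.4 and 35.04 CPM in WT replicates 1 to 4 and at 32.5, 50.9, 44.1 and 36.1 CPM in S155A replicates 1 to 4. The 2 S155A mice with high numbers were above every WT mouse, and the other 2 lay among or just above them. Bcat2 averaged 32.1 ± 2.76 CPM in WT and 40.9 ± 8.24 CPM in S155A mice (SD, n = 4 each). The fitted log2 fold change was 0.35 ± 0.15 (adjusted p = 0.993; permutation p = 0.0857, from the two-sided exact test of log2 CPM used throughout). Fitted log2 values are given with their standard error after ±. Reads of the antisense gene 0610005C13Rik, which shares exon sequence with Bcat2, could be counted with it if strand was not used, and the use of strand is not given in the sources used here.

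Mccc1, the other subunit of the carboxylase that contains Mccc2, was at 44.0, 42.3, 45.1 and 33.3 CPM in WT replicates 1 to 4. In S155A replicates 1 to 4 it was at 37.3, 59.5, 67.5 and 52.3 CPM. All S155A mice but replicate 1 were above every WT mouse. Its log2 fold change was 0.40 ± 0.18 (adjusted p = 0.993; permutation p = 0.143). Mccc1 shares exon sequence with Gm15952, B230207O21Rik and Mccc1os on the opposite strand, so its counts are less certain. Mccc2 differed by 0.06 ± 0.08 on the same scale. Of the dehydrogenase complex, Bckdha differed by 0.05 ± 0.12 and Bckdhb by 0.14 ± 0.10, and Ivd, which acts next on leucine, by 0.22 ± 0.19. Bckdk, the kinase that inactivates the complex and so sets the rate of branched-chain oxidation, was at 15.1, 11.1, 24.4 and 19.8 CPM in WT replicates 1 to 4 and at 13.3, 12.1, 19.5 and 22.0 CPM in S155A replicates 1 to 4. Both genotypes covered the same range, and the log2 fold change of Bckdk was -0.07 ± 0.26 (adjusted p = 0.996).

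In the phenylalanine and tyrosine branch all 5 values were above 0. Hgd, the dioxygenase that opens the ring of homogentisate, was at 687, 751, 684 and 652 CPM in WT replicates 1 to 4 and at 650.2, 948, 912 and 924 CPM in S155A replicates 1 to 4. S155A replicate 1 was the lowest of the 8 mice, and the other 3 S155A mice were above all WT mice. Hgd averaged 693 ± 41.4 CPM in WT and 859 ± 139.7 CPM in S155A mice (SD, n = 4 each), a log2 fold change of 0.31 ± 0.13 (adjusted p = 0.993; permutation p = 0.143). Hpd, the step before it, differed by 0.33 ± 0.20, and Tat, Fah, the last enzyme of the branch, and Qdpr, which restores the cofactor of phenylalanine hydroxylase, differed by 0.12 to 0.15. Their standard errors were between 0.13 and 0.29, and none of these 4 had an unadjusted p under 0.05.

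Among the enzymes of serine and alanine, Agxt had the highest fitted value of the members. Agxt, which moves the amino group of alanine to glyoxylate, was at 477, 822, 453 and 574 CPM in WT replicates 1 to 4 and at 637, 906, 684 and 853 CPM in S155A replicates 1 to 4. WT replicate 2 was above 2 of the S155A mice, so the ranges overlapped. The log2 fold change of Agxt was 0.41 ± 0.20 (adjusted p = 0.993; permutation p = 0.114), and S155A mice were higher in mean log2 CPM by 0.50 among the low and by 0.37 among the high animal numbers. The mitochondrial alanine aminotransferase Gpt2 differed by 0.28 ± 0.21, the cytosolic form Gpt by 0.12 ± 0.21, Sds by -0.0078 ± 0.17 and the related Sdsl by 0.0046 ± 0.17. The sign of both depended on single mice, and that of Sdsl also on the scaling, the tool and the replicate block.

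In the other branches no member had an unadjusted p under 0.05. Got1, the cytosolic aspartate aminotransferase, had 0.35 ± 0.24, Prodh 0.38 ± 0.32 and Afmid 0.36 ± 0.31. The liver glutaminase Gls2 had 0.07 ± 0.15, the cysteine dioxygenase Cdo1 0.06 ± 0.13 and the aminoacylase Acy1 0.18 ± 0.28. The 4 histidine enzymes were between -0.13 and 0.02, the tryptophan enzymes other than Afmid between -0.04 and 0.11, and Aass and Csad at -0.04 and -0.02. Intervals as wide as these leave room for differences of either sign.

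**Figure D2:**
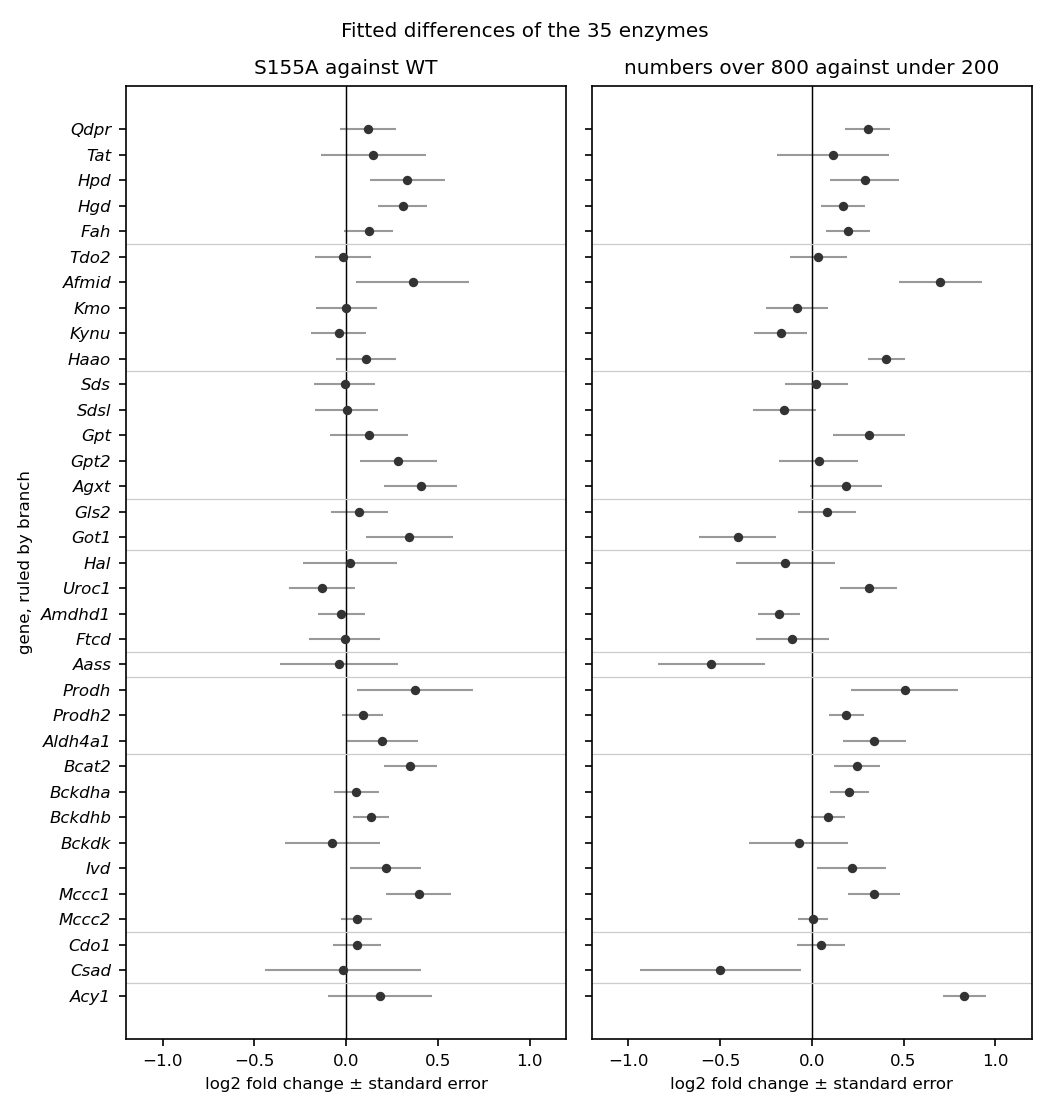
Fitted log2 fold change of each enzyme (points) with its standard error (lines), for S155A against WT on the left and for high against low animal numbers on the right, 8 mice in each fit. On the left 26 of 35 points are above 0 and none exceeds 0.41; on the right Acy1 at 0.83 lies farthest from 0.

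The comparison of high with low animal numbers was fitted with genotype as a term. No member passed an adjusted p of 0.05 in edgeR (0 of 35, against 0% of all genes tested), while DESeq2 called 2 members, Acy1 and Haao (5.7%), against 2.78% of all genes, and limma-voom called 0. At an unadjusted p under 0.05 there were 5 members, Acy1, Haao, Afmid, Qdpr and Mccc1, which is 14.3% against 12.8% of all genes. All 5 were higher in the high numbers, as 6.64% of all genes were. Acy1 and Haao were the members whose ranges did not overlap, which is 5.7% against 6.85% of all genes, or 3.53% for genes higher in the high numbers. Both shares were near those of all genes. The log2 value was above 0 for 25 members and below 0 for 10, where 49.2% of all genes were above 0, and its median was 0.12 over the members and -0.0045 over all genes. The median was 0.057 without S155A replicate 1, 0.19 without WT replicate 1 and 0.21 without WT replicate 3. Among cell markers, all 12 of lymphocytes were above 0 (median 0.44, 1 at an unadjusted p under 0.05, against 12.8% of all genes). So were 5 of 6 cholangiocyte (median 0.54, 2 at that p) and 7 of 10 pericentral markers (median 0.22, 4 at that p). Below 0 were 7 of 8 endothelial (median -0.19, 2 at that p) and 5 of 8 stellate markers (median -0.12, 2 at that p). The other lists had at most 1 marker at that p. The part of these cells was not tested.

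Acy1, on chr9:106432981-106438319 of GRCm38 in GENCODE release M21, frees amino acids from their acetylated form and was the member that differed most. It was at 23.1 and 18.9 CPM in WT and at 20.2 and 21.0 CPM in S155A mice with low numbers. With high numbers it was at 36.2 and 30.3 CPM in WT and at 40.0 and 42.3 CPM in S155A mice. All 4 mice with high numbers were above all 4 with low numbers, in either genotype. Acy1 averaged 20.8 ± 1.76 CPM in the low and 37.2 ± 5.22 CPM in the high numbers (SD, n = 4 each), a log2 fold change of 0.83 ± 0.12. Its adjusted p of 0.0618 equalled the smallest of any gene tested and missed the threshold (permutation p = 0.0286, the smallest that 4 mice against 4 allow). It ranked 10 by p among the 14629 genes. The difference in mean log2 CPM was 0.66 within WT and 0.999 within S155A mice. Acy1 passed with DESeq2 (adjusted p = 6.93e-07) and in edgeR with no filter on low counts. It also passed in edgeR without WT replicate 3 (adjusted p = 0.0246) and, as a separate setting, without the genotype term (adjusted p = 0.0430). Its adjusted p in all alternatives was between 6.93e-07 and 0.236.

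In the tryptophan branch the values ran from -0.17 for Kynu to 0.70 for Afmid. Haao, on chr17:83831156-83847963, opens the ring of hydroxyanthranilate on the way to NAD. It was at 287 and 239.8 CPM in WT and 257 and 281 CPM in S155A mice with low numbers, and at 339.8 and 326 CPM in WT and 396 and 351 CPM in S155A mice with high numbers. The ranges did not overlap. Haao averaged 266 ± 21.9 CPM in the low and 353 ± 30.2 CPM in the high numbers (SD, n = 4 each). Its log2 fold change was 0.40 ± 0.10 (adjusted p = 0.199; permutation p = 0.0286), and DESeq2 gave an adjusted p of 0.0106. The difference in mean log2 CPM was 0.34 within WT and 0.47 within S155A mice.

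Afmid, which turns formylkynurenine into kynurenine, was at 85.6 and 86.9 CPM in WT and 61.3 and 104 CPM in S155A mice with low numbers. With high numbers it was at 138 and 82.4 CPM in WT and 159 and 181 CPM in S155A mice. WT replicate 3 lay among the mice with low numbers, and the other 3 mice with high numbers were above all of them. The log2 fold change of Afmid was 0.70 ± 0.23 (adjusted p = 0.272; permutation p = 0.114). Afmid shares exon sequence with Gm20708 on the same strand and with Tk1 on the other strand, so its counts are less certain. The dioxygenase Tdo2, which starts the pathway, differed by 0.03 ± 0.16, Kmo by -0.08 ± 0.17 and Kynu by -0.17 ± 0.14.

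Qdpr was at 332 and 261 CPM in WT and 275 and 273 CPM in S155A mice with low numbers, and at 328 and 304 CPM in WT and 393 and 390.3 CPM in S155A mice with high numbers. Only the 2 S155A mice with high numbers were above WT replicate 1. Qdpr shares exon sequence with Gm42413 on the opposite strand. The log2 fold change of Qdpr was 0.30 ± 0.12 (adjusted p = 0.344; permutation p = 0.0857), with 0.10 within WT and 0.51 within S155A mice in mean log2 CPM. For Mccc1 the log2 fold change was 0.34 ± 0.14 (adjusted p = 0.361; permutation p = 0.171), with 0.19 within WT and 0.52 within S155A mice.

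The proline branch held 3 values above 0, at 0.51 ± 0.29 for Prodh, 0.34 ± 0.17 for Aldh4a1, the dehydrogenase that both proline and hydroxyproline reach, and 0.19 ± 0.10 for Prodh2. Prodh2 was at 319 and 313 CPM in WT and 321 and 357 CPM in S155A mice with low numbers, and at 389 and 336 CPM in WT and 407 and 359 CPM in S155A mice with high numbers. WT replicate 3 was below S155A replicate 4, which was the sole overlap between the ranges (adjusted p = 0.453; permutation p = 0.0571). The values below 0 were led by Aass at -0.55 ± 0.29, Csad at -0.50 ± 0.44 and Got1 at -0.40 ± 0.21, and none of these had an unadjusted p under 0.05. In the histidine branch Uroc1 stood at 0.31 ± 0.16, while Hal, Amdhd1 and Ftcd were between -0.18 and -0.11.

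**Figure D3:**
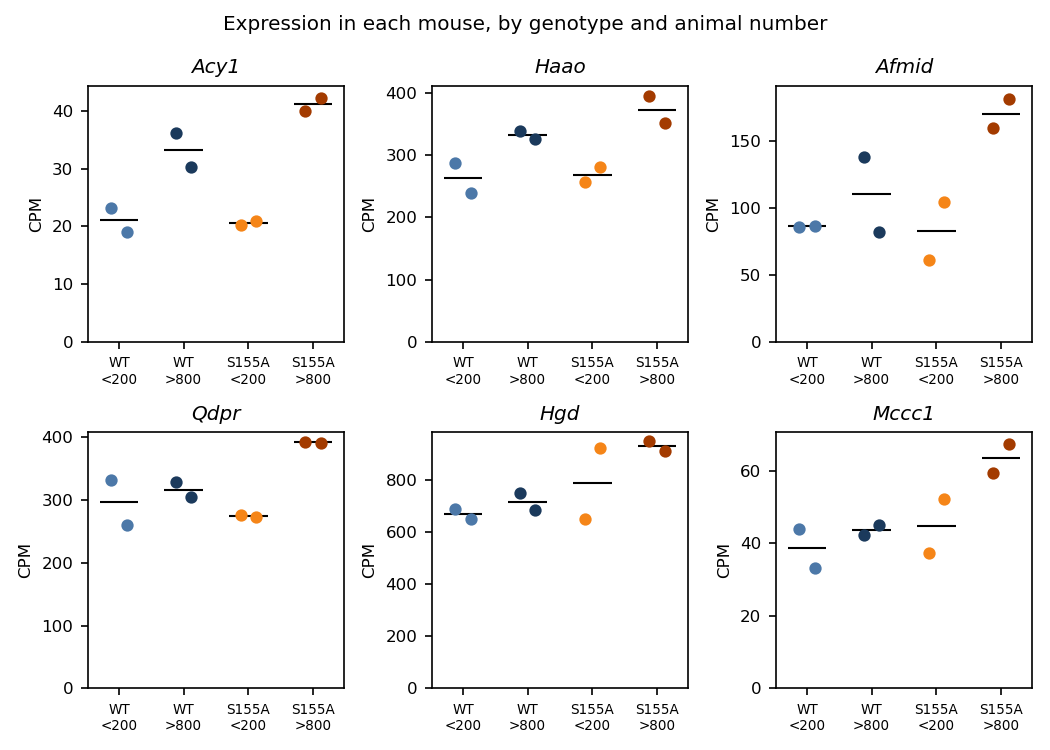
CPM in each mouse (points) with the mean of 2 mice (bars), by genotype and animal number range, for the 4 enzymes with the smallest p between the number ranges (Acy1, Haao, Afmid and Qdpr) and for Hgd and Mccc1. Acy1 lies between 18.9 and 23.1 CPM in the 4 mice with low numbers and between 30.3 and 42.3 CPM in the 4 with high numbers.

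The third comparison asked whether the difference between genotypes was the same in both animal number ranges, by an interaction term, with 2 mice in each of the 4 combinations. No member passed an adjusted p of 0.05 in edgeR (0 of 35, against 0% of all genes tested). DESeq2 called 3 members, Hal, Tat and Csad (8.6%), against 1.95% of all genes, and limma-voom called 0. At an unadjusted p under 0.05 there were 7 members, or 20%, against 11.1% of all genes. Of these, 6 had positive values (17.1%, against 6.02% of all genes), which means a higher S155A level relative to WT in the high than in the low numbers. They were Hal, Tat, Sds, Aass, Kmo and Prodh, and Csad had a negative value, as 5.07% of all genes did. The interaction value was above 0 for 30 members and below 0 for 5, where 49.1% of all genes were above 0. Its median was 0.39 over the members, against -0.0092 over all genes, and 0.23 without WT replicate 1.

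Within the low numbers, the S155A minus WT difference in mean log2 CPM had a median of -0.06 over the members, with 26 of 35 below 0, where 49.4% of all genes were above 0. Within the high numbers, the median was 0.32, with 33 of 35 above 0, where 48.9% of all genes were above 0. S155A mice were below WT in the low and above WT in the high numbers for 25 of 35 members (71.4%), against 27.2% of all genes. Csad was the single member with the opposite order. Seen from the other side, the difference between high and low numbers had a median of -0.0043 within WT mice, with 17 of 35 above 0 (49.3% of all genes), and of 0.33 within S155A mice, with 31 of 35 above 0 (50.3% of all genes). These 4 differences rest on the same 8 mice and are not independent of each other.

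**Figure D4:**
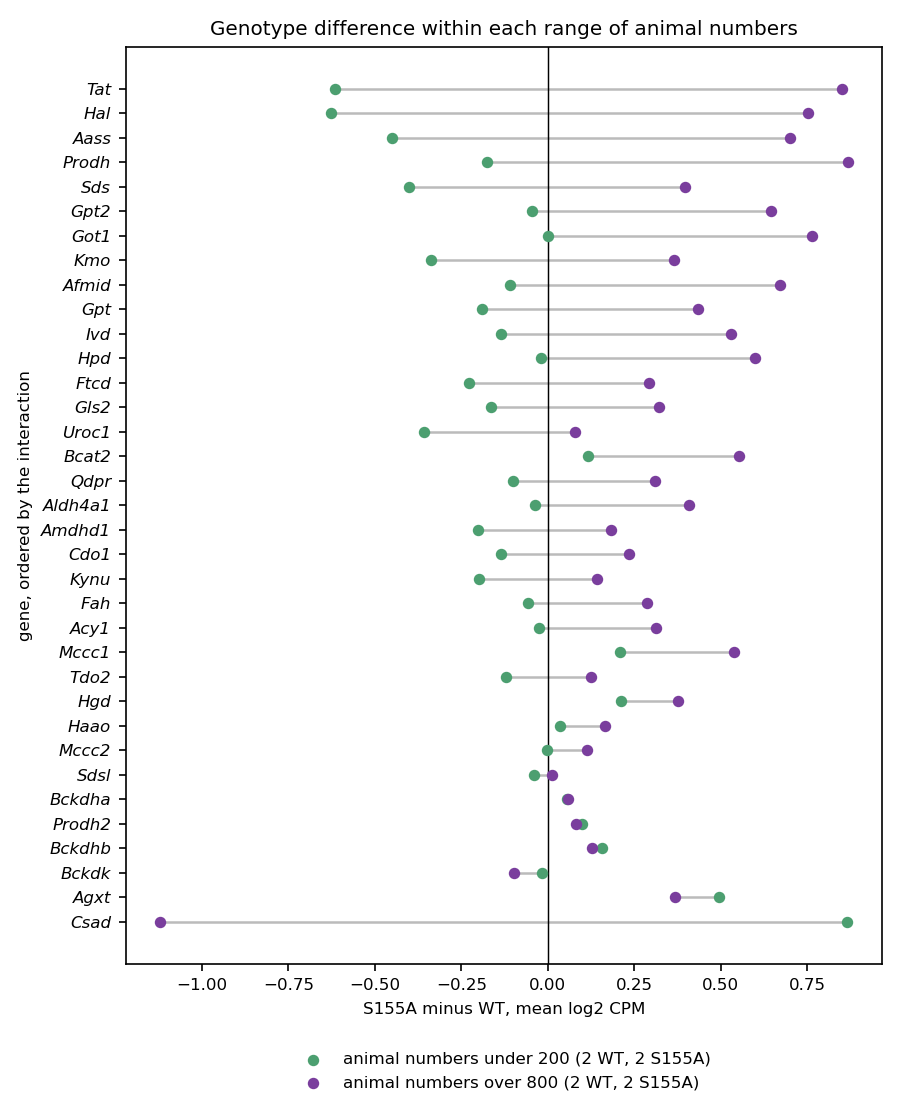
Difference between S155A and WT in mean log2 CPM for each enzyme, within the low animal numbers (green, 2 mice of each genotype) and within the high animal numbers (purple, 2 mice of each genotype), ordered by the interaction. The purple points are above 0 for 33 of the 35 enzymes and the green points for 9.

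Hal, on chr10:93488768-93519304, is the ammonia lyase that starts histidine breakdown and had the smallest p of the members. It was at 632 and 436 CPM in WT and 309 and 374 CPM in S155A mice with low numbers. With high numbers it was at 293 and 303 CPM in WT and 487 and 517 CPM in S155A mice. The order of the genotypes was opposite in the ranges, with no overlap in either. The S155A minus WT difference was -0.63 in the low and 0.75 in the high numbers, and the interaction value was 1.40 ± 0.26 (adjusted p = 0.210, rank 36 of all genes by p). DESeq2 gave an adjusted p of 0.000278, and edgeR gave 0.0422 without WT replicate 4. Over all alternatives it was between 8.65e-07 and 0.567. Pooled over the ranges, Hal differed by only 0.02 ± 0.26 between genotypes. The later histidine enzymes had interaction values of 0.56 ± 0.36 for Ftcd, 0.46 ± 0.27 for Uroc1 and 0.39 ± 0.19 for Amdhd1, each with an unadjusted p above 0.05.

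Tat, on chr8:109990437-109999803, removes the amino group of tyrosine and limits the rate of its breakdown. It was at 1697 and 1224 CPM in WT and 755 and 1172 CPM in S155A mice with low numbers, and at 818 and 1105 CPM in WT and 1539 and 1906 CPM in S155A mice with high numbers. As for Hal, WT mice were above S155A mice in the low and below them in the high numbers, though S155A replicate 4 was close to WT replicate 4. The differences were -0.62 and 0.85, and the interaction value was 1.44 ± 0.36 (adjusted p = 0.282; DESeq2, adjusted p = 0.00601). The other enzymes of the branch had 0.56 ± 0.33 for Hpd, 0.42 ± 0.20 for Qdpr, 0.34 ± 0.21 for Fah and 0.14 ± 0.24 for Hgd.

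Csad, on chr15:102176999-102204724, had the lowest interaction value of the 35 members. It was at 129.5 and 221 CPM in WT and 292 and 324 CPM in S155A mice with low numbers, and at 159 and 336 CPM in WT and 135 and 84.1 CPM in S155A mice with high numbers. The S155A mice were the higher genotype in the low and the lower genotype in the high numbers, with WT replicates 2 and 3 far apart. The differences were 0.86 and -1.12, and the interaction value was -1.99 ± 0.53 (adjusted p = 0.282; DESeq2, adjusted p = 0.00377). Csad shares exon sequence with Zfp740 on the opposite strand. Cdo1, the enzyme that makes the substrate of Csad, had an interaction value of 0.35 ± 0.23.

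Sds, which turns serine into pyruvate, was at 231 and 179.7 CPM in WT and 154 and 154 CPM in S155A mice with low numbers. With high numbers it was at 143 and 173 CPM in WT and 212 and 202 CPM in S155A mice. The genotypes did not overlap in either range and were in opposite order. The differences were -0.40 and 0.40, and the interaction value was 0.80 ± 0.22 (adjusted p = 0.287). Sds shares exon sequence with Plbd2 and Gm15690 on the opposite strand. Its neighbour Sdsl was at 26.3 and 19.6 CPM in WT and 24.5 and 19.97 CPM in S155A mice with low numbers, and at 19.7 and 20.2 CPM in WT and 26.0 and 15.5 CPM in S155A mice with high numbers. The genotypes overlapped in both ranges, and the interaction value of Sdsl was 0.11 ± 0.35. The difference between the interactions of Sds and Sdsl was not tested.

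Aass was at 600.4 and 288 CPM in WT and 277 and 334 CPM in S155A mice with low numbers, and at 220.2 and 176.5 CPM in WT and 309.7 and 330.4 CPM in S155A mice with high numbers. WT replicate 1 was far above the other 7 mice, and the 2 WT mice with high numbers were the lowest. The interaction value was 1.23 ± 0.42 (adjusted p = 0.347). Kmo, the monooxygenase of the kynurenine pathway, was at 289 and 214 CPM in WT and 174 and 223 CPM in S155A mice with low numbers, and at 189 and 185 CPM in WT and 245 and 235 CPM in S155A mice with high numbers (interaction value 0.71 ± 0.25, adjusted p = 0.361). Its neighbours in the pathway had 0.68 ± 0.40 for Afmid, 0.34 ± 0.27 for Kynu, 0.28 ± 0.30 for Tdo2 and 0.14 ± 0.19 for Haao.

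Prodh was at 189 and 92.3 CPM in WT and 118 and 116 CPM in S155A mice with low numbers, and at 168 and 105 CPM in WT and 222 and 265 CPM in S155A mice with high numbers. The S155A mice with high numbers were above all others, and the WT mice were spread in both ranges. Its interaction value was 1.10 ± 0.46 (adjusted p = 0.425), against -0.02 ± 0.19 for Prodh2 and 0.39 ± 0.32 for Aldh4a1. In a comparison of paired forms, Gpt was at 450.0 and 272 CPM in WT and 296 and 317 CPM in S155A mice with low numbers, and at 414 and 302 CPM in WT and 477 and 478 CPM in S155A mice with high numbers. Gpt2 was at 899.9 and 532 CPM in WT and 752 and 598 CPM in S155A mice with low numbers, and at 641 and 499 CPM in WT and 783 and 999.9 CPM in S155A mice with high numbers. In each pair of S155A mice with high numbers both were above both WT mice of that range. The interaction values were 0.65 ± 0.33 for Gpt and 0.73 ± 0.37 for Gpt2, with adjusted p of 0.520 and 0.514.

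Gls2, which releases ammonia from glutamine, was at 368 and 258 CPM in WT and 256 and 295 CPM in S155A mice with low numbers, and at 305 and 252 CPM in WT and 326 and 368 CPM in S155A mice with high numbers. Its interaction value was 0.50 ± 0.27 (adjusted p = 0.537), and that of Got1 was 0.72 ± 0.35 (adjusted p = 0.497). The branched-chain branch had a median interaction value of 0.11 and no member at an unadjusted p under 0.05. It was led by Ivd at 0.64 ± 0.31 and Bcat2 at 0.45 ± 0.21, while Bckdha, Bckdhb and Mccc2 were between -0.04 and 0.11 and Bckdk was at -0.18 ± 0.56. Agxt, at -0.19 ± 0.40, had a higher mean in S155A mice in both ranges.

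**Figure D5:**
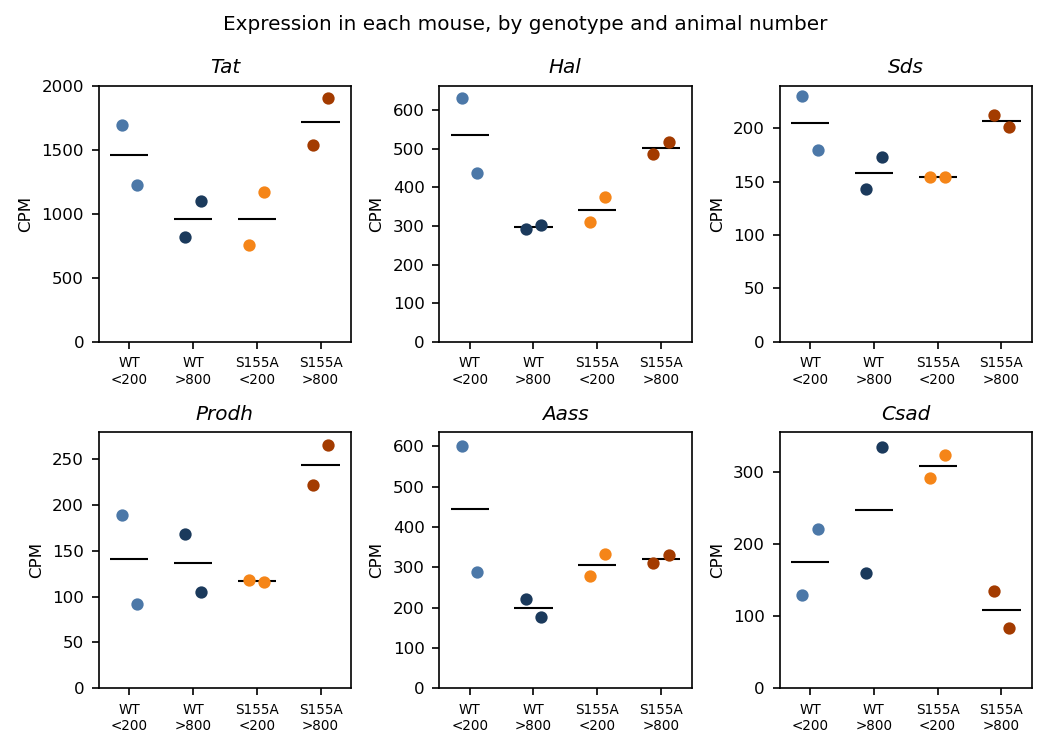
CPM in each mouse (points) with the mean of 2 mice (bars), by genotype and animal number range, for Tat, Hal, Sds, Prodh, Aass and Csad. For Hal the S155A mice lie below the WT mice with low numbers, at 309 and 374 against 632 and 436 CPM, and above them with high numbers, at 487 and 517 against 293 and 303 CPM, and Csad shows the opposite order.

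The summed level of hepatocyte markers was also highest in the S155A mice with high numbers. The summed level of the 8 hepatocyte markers was 150285 to 153484 CPM in the S155A mice with high numbers, against 112266 to 131231 CPM in the other 6 mice, and their median interaction value was 0.31, with 3 of 8 at an unadjusted p under 0.05. The 8 periportal markers, which share Alb with the hepatocyte list, summed to 103884 to 111280 CPM in these 2 mice and to 75194 to 96574 CPM in the other 6, and the 10 pericentral markers to 13628 to 16105 CPM against 9887 to 12491 CPM. The sum and the single genes differed for the pericentral markers, whose median interaction value was -0.16, with 7 of 10 below 0 and 4 at an unadjusted p under 0.05 (2 positive and 2 negative), while that of the periportal markers was 0.44, with 6 of 8 above 0 and 2 at that p. The 8 markers of Kupffer cells and macrophages summed to 323 to 432 CPM in the S155A mice with high numbers, 187 to 229 CPM in the WT mice with high numbers, 203 to 306 CPM in the S155A mice with low numbers and 252 to 384 CPM in the WT mice with low numbers, with a median interaction value of 1.42 and 6 of 8 at an unadjusted p under 0.05. In the interaction, 11.1% of all genes had an unadjusted p under 0.05. The shares were 37.5% of the hepatocyte, 25.0% of the periportal, 40.0% of the pericentral and 75.0% of the Kupffer cell and macrophage markers. In the other lists, 11 of 12 lymphocyte markers were above 0 in the interaction (median 1.38, 4 at that p, 33.3%). Of the stellate cell markers 7 of 8 were below 0 (median -0.23, 1 at that p, 12.5%). So were 5 of 6 cholangiocyte markers (median -0.14) and both tested acinar markers (median -1.49), with 0 at that p. Endothelial markers were split, 4 above and 4 below 0 (1 at that p, 12.5%). Red blood cell markers had 4 of 6 above 0 (0 at that p). No marker of these lists was at 0 in all mice. Their part in the result was not tested. Without S155A replicate 3, which had the lymphocyte transcripts, the median interaction value of the enzymes was 0.43, and the values were 1.35 for Hal, 1.28 for Tat, -1.70 for Csad and 0.84 for Sds. Without WT replicate 2, which had the acinar transcripts, the median was 0.48. Between the number ranges, Acy1 was at 0.77 and Haao at 0.42 without S155A replicate 3, and at 0.82 and 0.41 without WT replicate 2. Between genotypes, Bcat2, Hgd and Mccc1 were at 0.31, 0.28 and 0.27 without S155A replicate 3, and at 0.37, 0.35 and 0.41 without WT replicate 2.

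Further genes of the pathway were read from lists of other amino acid catabolism genes, amino acid carriers and regulators. Of 59 other catabolism genes, 56 were tested, and edgeR called 0 in each of the 3 comparisons. Between genotypes, 0 had an unadjusted p under 0.05 and the median log2 fold change was 0.06, with 44 above 0. Between the animal number ranges, 14 had an unadjusted p under 0.05 (11 higher and 3 lower in the high numbers, 25.0% against 12.8% of all genes), with a median of 0.12. For the interaction there were 17, all with positive values (30.4% against 11.1% of all genes), with a median of 0.29. Within the low numbers 40 of the 56 were lower in S155A mice and within the high numbers 46 were higher, and 34 of 56 had both, where 27.2% of all genes did.

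Of the 12 carriers, which move amino acids across the cell and mitochondrial membranes, edgeR called 0 in any comparison. At an unadjusted p under 0.05 there were 0 between genotypes, 4 between the number ranges (33.3%, against 12.8% of all genes) and 7 in the interaction (58.3%, against 11.1% of all genes), 6 of them positive, with a median interaction value of 0.52. Of the 12 regulators, transcription factors, their cofactors and the glucagon receptor, edgeR also called 0. There were 0 between genotypes, 5 between the number ranges (41.7%, against 12.8% of all genes), all higher in the high numbers, and 1 in the interaction (8.3%, against 11.1% of all genes), which was negative, at a median interaction value of 0.06. The other catabolism genes and the carriers had interaction medians above that of all genes, as the 35 enzymes did, and whether the lists differ from each other was not tested.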

How the data were processed

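Liver RNA of 8 mice was read as 100 bp pairs from stranded mRNA libraries. For each gene the authors deposited an estimated count, which the table's name gives as length-scaled output of salmon and which was not normalized for library size. The submitters' processing notes name build GRCm38, bcl2fastq, STAR, SAMtools, MultiQC and DESeq2, and the version of salmon, the annotation and the use of strand are not given in the sources used here. Each column was matched to its mouse by animal number. Length scaling can shift genes whose isoforms differ between mice. Besides the members marked above, Aldh4a1, Bckdha and Gls2 share exon sequence with another annotated gene.

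Counts were rounded to integers before testing. Genes kept by filterByExpr (14629 of 45706) were fitted in R 4.3.3 by edgeR 4.0.16 (quasi-likelihood test, TMM scaling), for genotype, for animal number range with genotype, and for their interaction, with Benjamini-Hochberg adjustment over all genes and a call at an adjusted p under 0.05. Values after ± are standard errors for log2 differences and SDs for CPM. Log2 CPM used a prior count of 2. Alternatives were DESeq2 1.42.0, limma-voom (limma 3.58.1), other scalings and filters, a robust fit, added or dropped terms, and leaving out each mouse. No library was a copy of another (chi-square per gene at least 40.2). The mice are separate animals.

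The members and lists were chosen with earlier results of these data known. Values mouse by mouse are given for the 4 members with the smallest p in each comparison, for Sds, Sdsl, Gpt, Gpt2, Prodh and Prodh2, and for Tat, Bckdk and Gls2. Aass and Kmo were added after their values were seen, as they were among the 7 members at an unadjusted p under 0.05 in the interaction. Of the genes on the other lists, those called would have been named, and there was none.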

Additional observations from a re-analysis of the deposited data

Results flagged for a closer look

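In each gene's 4 mice of one genotype or of one animal number range, the highest or lowest mouse was compared with the others by Dixon's ratio. Over 140 groups, 8 single mice lay far from the rest, where chance gives about 1 in 20, or 7. No cause was tested for any of them.

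Hgd accounted for a pair of these. In S155A mice, replicate 1 was at 650.2 CPM and the other 3 were between 912 and 948 CPM, and among the low animal numbers S155A replicate 4 was at 924 CPM and the other 3 were between 650.2 and 687 CPM. In the tryptophan branch, Tdo2 was at 758 CPM in WT replicate 2, below the 884 to 909.7 CPM of the other mice with high numbers, and for Afmid WT replicate 2 reached 138 CPM where the remaining WT mice spanned 82.4 to 86.9 CPM. For Sdsl, WT replicate 1 reached 26.3 CPM where the remaining WT mice spanned 19.6 to 20.2 CPM. For Ftcd, S155A replicate 4 was down at 420.1 CPM where the remaining S155A mice spanned 523 to 538 CPM. WT replicate 3 was the lowest of the mice with high numbers for Aldh4a1, at 349 CPM against 559 to 594 CPM, and for Bckdhb, at 67.7 CPM against 81.2 to 83.2 CPM.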

How the results depend on the processing

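Each member had at least 557 counts in every library, and each combination of genotype and range held 2 mice. No member was called between genotypes in any alternative. Between the animal number ranges, 2 members were called with no filter on low counts (Acy1, Afmid), 2 with DESeq2 (Acy1, Haao), 1 with no genotype term (Acy1) and 0 to 1 with a mouse left out (Acy1, without WT replicate 3). For the interaction, 6 were called with no filter (Aass, Csad, Hal, Prodh, Sds, Tat), 3 with DESeq2 (Csad, Hal, Tat) and 0 to 1 with a mouse left out (Hal, without WT replicate 4). Over all genes the main fit called 0. With no filter 514 of 22439 genes were called between the ranges and 765 of 22439 for the interaction. DESeq2 called 406 (2.78%) and 285 (1.95%) of 14629. Between the ranges, 12 of 14629 were called with no genotype term and 111 of 14881 without WT replicate 3. With a mouse left out, the interaction fit had 1 mouse in 1 combination. The cause of the added calls was not tested.

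With a mouse left out, the median over the members ran from 0.045 to 0.17 between genotypes, from 0.057 to 0.21 between the ranges and from 0.23 to 0.54 for the interaction. Scaling by total count alone moved the median of all genes for the interaction to -0.16, and the members' medians were then 0.060, 0.061 and 0.25. That scaling reversed the genotype value of Hal (-0.025) and Sdsl (-0.028) and the range value of Sds (-0.038) and Gpt2 (-0.027). The genotype value of Sdsl also reversed with limma-voom (-0.0014) and with the replicate block (-0.012).

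Reversals with a mouse left out are given as the lowest to the highest value. Between genotypes these were Acy1 -0.0043 to 0.35, Haao -0.00053 to 0.20, Hal -0.12 to 0.30, Tat -0.069 to 0.36, Csad -0.31 to 0.30, Sds -0.11 to 0.13, Sdsl -0.092 to 0.13, Bckdk -0.24 to 0.12 and Gls2 -0.017 to 0.20. Between the ranges they were Agxt -0.027 to 0.32, Hal -0.37 to 0.088, Tat -0.17 to 0.37, Sds -0.069 to 0.17, Gpt2 -0.12 to 0.27, Bckdk -0.35 to 0.11 and Gls2 -0.011 to 0.24. The interaction values of Hal (1.11 to 1.64), Tat (1.16 to 1.79), Csad (-2.43 to -1.36) and Sds (0.62 to 0.97) kept their sign. These 4 genes and the interaction median were put through the alternatives only after the data were seen.

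Deviations of mice with the same replicate number correlated between -0.11 and 0.17, and 5 of 8 mice correlated best with their own number. Whether mice with the same replicate number share more than the label was not tested. With the replicate block, 0 members were called between genotypes (median 0.10) and 0 for the interaction (median 0.41). The block could not be fitted between the ranges, since the replicate number fixes the range.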
